A study of Homo sapiens with 12 samples.

Results

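The genotype by day interaction asks whether the loss of FEZ1 changed transcript levels differently in late and in early brain organoids. It was measured in the 8 libraries whose names start with the code B16, out of 12 libraries of bulk RNA-seq in the series. These are FEZ1-null organoids of day 60 (2 libraries), wildtype organoids of day 60 (2), FEZ1-null organoids of day 10 (2) and wildtype organoids of day 10 (2). All of them derive from the human embryonic stem cell line H1, and the FEZ1-null ones carry a knockout of FEZ1. The labels do not say how FEZ1 was edited, whether the null line is 1 clone, or whether replicate libraries come from different cultures. The p-values therefore measure library-to-library spread, which may be technical. The other 4 libraries, 1 of each genotype with the code B27 and 1 of each with the code B29, are all of day 10, and the meaning of the codes is not given.

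FEZ1 encodes an adaptor that links kinesin motors to cargo for transport along microtubules, and it is best known for its part in axon growth and in the delivery of presynaptic proteins. Cerebral organoids begin as folded neuroepithelium and form neurons over weeks of culture, so that an early organoid is rich in dividing progenitors and a late one in neurons. Cells of the neural plate border can also arise in such cultures, and they give the neural crest and the sensory placodes, the sources of peripheral sensory neurons and glia. The interaction is the log2 difference between FEZ1-null and wildtype at day 60 minus the same difference at day 10. A positive value means that the knockout stood higher relative to wildtype at day 60 than at day 10, whichever day it comes from.

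Total counts of the 8 libraries were 16.5 M to 22.7 M, and 2 groups held a library that stood apart. FEZ1-null day 10 replicate 1 devoted 14.3% of its total to ribosomal protein genes, and the other 3 B16 libraries of that day 10.3% to 10.7%. Wildtype day 60 replicate 2 had more transcripts of mesenchymal, epithelial and vessel genes than its partner. The 2 wildtype day 10 libraries of B16 lay close to each other but stood apart from all other day 10 libraries of the series. On the component with 84.4% of the variance at day 10 they lay at 67.1 and 79.9, and the other 6 libraries, the 2 wildtype ones of B27 and B29 included, lay between -31.5 and -12.6. Every result below rests on these libraries. Values from B27 and B29 are given for the lists and genes that carry the main results, and not for each gene.

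FEZ1 itself was lower in the knockout at both days, and by more at day 60. Its level was 48.0 and 48.8 CPM (counts scaled to a library size of 1000000) in FEZ1-null organoids of day 60, against 242 and 199 CPM in wildtype organoids of day 60. At day 10 it was 23.0 and 20.5 CPM in FEZ1-null organoids and 40.9 and 43.8 CPM in wildtype organoids. The genotypes did not overlap at either day, and both differences passed the test. The knockout effect on the log2 scale was -2.19 at day 60, with an adjusted p of 0.00916. It was -0.96 at day 10, with an adjusted p of 0.00791. The interaction was -1.22 ± 0.23 (SE; adjusted p = 0.0201). With the B27 and B29 libraries as the day 10 part it was -0.93 (adjusted p = 0.043), and FEZ1 was 1 of the genes called either way. The call was lost without wildtype day 10 replicate 1 or 2 (adjusted p = 0.116 and 0.117), wildtype day 60 replicate 1 (0.0635) or FEZ1-null day 60 replicate 1 or 2 (0.138 and 0.132). The paralogue FEZ2, between 21.2 and 27.9 CPM in all 8 libraries, had an interaction of -0.21 ± 0.24 (adjusted p = 0.661).

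Of 17625 genes tested, 908 (5.15%) had an interaction that passed an adjusted p of 0.05. Of these, 777 (4.41%) were positive and 131 (0.743%) negative, and the median interaction of all genes tested was 0.02. Within the same fit the knockout effect passed the test for 9 genes (0.0511%) at day 60 and for 2032 genes (11.5%) at day 10. The 4 genes higher in the knockout at day 60 (0.0227%) were OTX2, GAD1, P2RX3 and LINC01305. The 5 lower ones (0.0284%) were FEZ1, CTSF, CXCL11, NAP1L6P and GUSBP4. At day 10 the knockout was higher for 620 genes (3.52%) and lower for 1412 (8.01%). At an unadjusted p below 0.05 there were 1458 genes at day 60 and 4972 at day 10. The day 60 count was 622 without wildtype day 60 replicate 1, 159 and 124 without FEZ1-null day 10 replicate 1 and 2, and 0 to 3 without any other library. The day 10 count was 8026 without FEZ1-null day 10 replicate 2 and 681 without wildtype day 10 replicate 2.

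The positive interactions were mostly made at day 10. On the log2 CPM scale the day 60 difference was the larger one in 32 of the 777 genes and the day 10 difference in 745, and by fitted fold change the numbers were 31 and 746. The median fitted knockout effect over the 777 genes was 0.16 at day 60 and -2.61 at day 10. Their median level was 18.9 CPM in FEZ1-null and 15.7 CPM in wildtype organoids of day 60, and 1.53 CPM in FEZ1-null and 12.2 CPM in wildtype organoids of day 10. In 758 of the 777 both B16 wildtype libraries of day 10 lay above the other 6 day 10 libraries of the series, as did 18.2% of all genes tested. The 131 negative interactions had the opposite layout, with a median effect of -0.45 at day 60 and 1.45 at day 10. In 110 of them both B16 wildtype libraries of day 10 lay below the other 6, as did 13.6% of all genes tested. These 2 libraries are part of the contrast that chose the genes, so the counts describe the calls and are not a test of them. In bulk RNA, fewer cells of a type and less RNA per cell cannot be told apart.

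**Figure D1:**
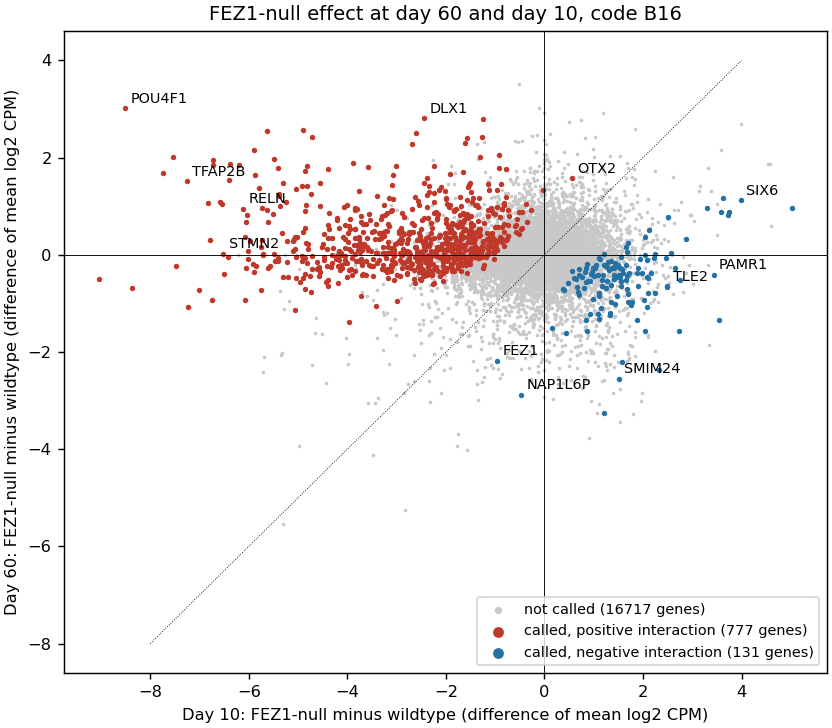
Each point is 1 of the 17625 genes tested, placed by the FEZ1-null minus wildtype difference of mean log2 CPM at day 60 (vertical) and day 10 (horizontal) in B16, 2 libraries a group. The 777 genes with a positive interaction (red) spread to the left, with day 60 differences near 0 for most, and the 131 with a negative one (blue) lie mostly to the right, while FEZ1 and NAP1L6P lie low on the vertical axis.

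In the B27 and B29 libraries of day 10 the same genes did not differ between genotypes in 1 direction. Of the 777 genes, 323 were lower and 444 higher in the knockout there, with a median difference of 0.07 on the log2 CPM scale, against -2.48 in B16. The median level of these genes was 1.82 CPM in FEZ1-null and 1.53 CPM in wildtype organoids of B27 and B29. Of the 131 negative genes, 68 were lower and 63 higher in the knockout there (median -0.01, against 1.44 in B16). Over all genes tested 52.3% were lower. The knockout effect within B27 and B29 passed the test for 29 genes (0.166%), 11 higher (0.0631%) and 18 lower (0.103%). The difference between the codes in the day 10 effect was itself tested over all 12 libraries and passed for 1057 of 17757 genes (5.95%), of which 269 (1.51%) had the higher effect in B16 and 788 (4.44%) the lower. Among them were 549 of the 777 genes and 69 of the 131. The B16 day 10 difference is part of both contrasts and helped to choose these genes. The overlap and the larger B16 medians therefore describe the calls and are not a separate test of them. The code difference also equals the difference between the interactions taken from the 2 sets of day 10 libraries, since day 60 cancels.

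**Figure D2:**
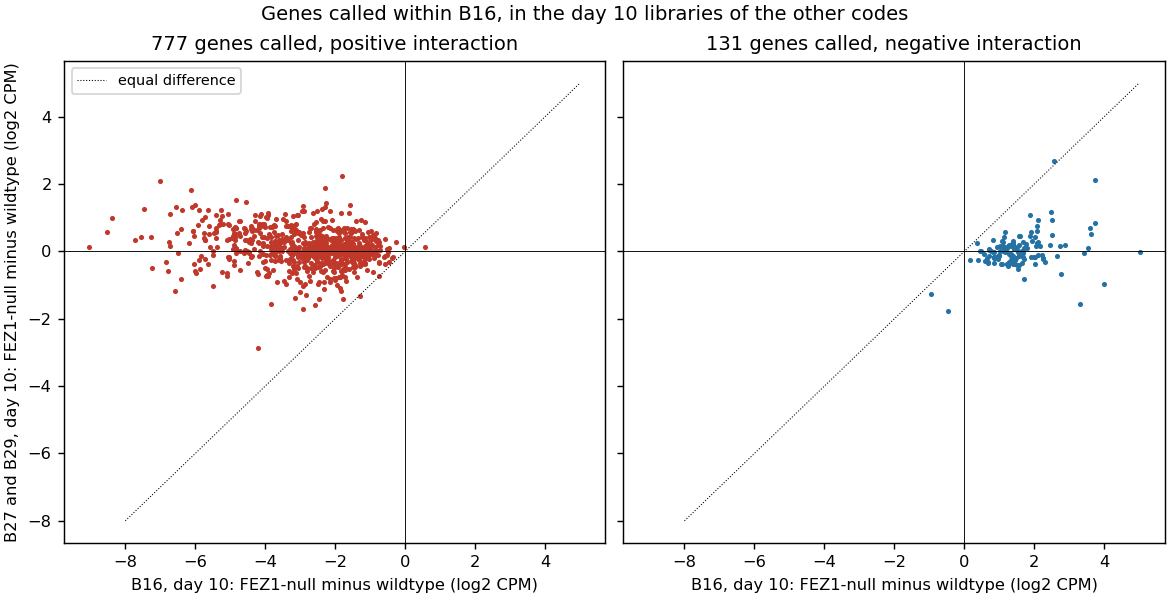
Each point is 1 gene called in the interaction, placed by its FEZ1-null minus wildtype difference of mean log2 CPM at day 10 in B16 (horizontal, 2 libraries a group) and in B27 and B29 together (vertical, 2 libraries a group). The 777 positive genes (red) spread along the horizontal axis around a median of -2.48 and stay near a median of 0.07 on the vertical one.

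The number of calls moved with the day 10 libraries used. With the B27 and B29 libraries of both genotypes in place of the B16 ones, 50 genes (0.287%) were called, 37 positive (0.212%) and 13 negative (0.0745%). With the direction kept, 11 of these were among the 777 and 3 among the 131. The 3 negative ones were FEZ1, CCKBR and UBBP4, and UBBP4 is a pseudogene that can hold reads of ubiquitin genes. Called or not, 414 of the 777 and 114 of the 131 kept their sign, with the day 60 libraries shared by both fits. With only the wildtype day 10 libraries exchanged, 0 genes passed edgeR's test, with 2538 at an unadjusted p below 0.05. With all 4 day 10 libraries of each genotype, 0 genes passed, with 1269 unadjusted. With only the FEZ1-null day 10 libraries exchanged, 2982 genes were called. Leaving out FEZ1-null day 10 replicate 2, so that replicate 1 stood alone, gave 6461 calls, and leaving out replicate 1 gave 1400. Without wildtype day 10 replicate 2, FEZ1-null day 60 replicate 1 or FEZ1-null day 60 replicate 2, 430, 467 and 459 genes were called. The negative calls among these were 20, 15 and 16, against 131 with all 8 libraries, and the positive ones 410, 452 and 443, against 777. Without wildtype day 60 replicate 1 there were 487 negative and 730 positive calls.

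**Figure D3:**
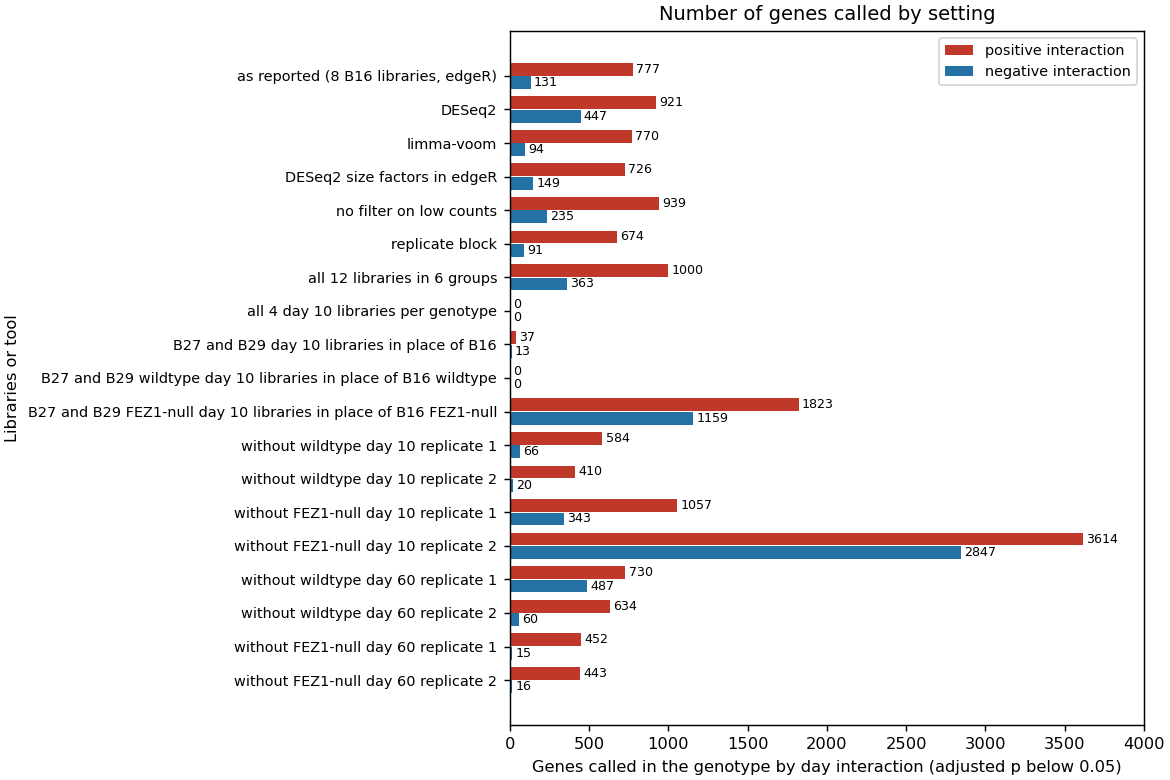
Bars give the number of genes with a positive (red) and a negative (blue) interaction at an adjusted p below 0.05 under each choice of libraries or tool, starting at 0. The B16 libraries give 777 and 131, the exchange of the wildtype day 10 libraries gives 0, and the exchange of the FEZ1-null ones gives 2982 in all.

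The largest positive interactions belonged to genes that were abundant in wildtype day 10 organoids of B16 and nearly undetected in FEZ1-null organoids of that day. POU4F1 encodes a homeobox factor of peripheral sensory neurons. It stood at 16 and 15.5 CPM in FEZ1-null and 0.998 and 3.35 CPM in wildtype organoids of day 60, and at 1.24 and 0.427 CPM in FEZ1-null and 262 and 361 CPM in wildtype organoids of day 10. The wildtype day 10 libraries were far above the other 6, and the interaction was 11.43 ± 0.77 (adjusted p = 0.000172). ISL1, a LIM homeobox gene of sensory and motor neurons, had 14.5 and 12.5 CPM in FEZ1-null and 2.21 and 4.73 CPM in wildtype organoids of day 60. At day 10 ISL1 had 0.118 and 0.19 CPM in FEZ1-null and 43.4 and 51.5 CPM in wildtype organoids (interaction 10.13 ± 0.58, adjusted p = 8.94e-05). In the B27 and B29 libraries ISL1 did not exceed 0.193 CPM in FEZ1-null or 0.057 CPM in wildtype organoids.

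For the other 8 genes at the top of the ranking, FEZ1-null day 10 organoids held 0 to 2 counts over both libraries. The fitted fold change then depends on the prior, so the difference of log2 CPM with a prior count of 2 is given. TLX3, a homeobox factor of sensory and dorsal spinal neurons, had 49 counts in FEZ1-null and 5 in wildtype organoids of day 60, and 1 count in FEZ1-null and 1128 in wildtype organoids of day 10. Its interaction on the log2 CPM scale was 9.41, and the call (adjusted p = 0.00334) was lost without FEZ1-null day 10 replicate 1 (adjusted p = 0.0716) or with no filter on low counts (0.0519). TLX3 in B27 and B29 did not exceed 0.0643 CPM in FEZ1-null organoids and was at 0 CPM in wildtype organoids. DRGX, a homeobox gene of dorsal root ganglia, had 2 counts in FEZ1-null and 373 in wildtype organoids of day 10 (interaction 7.51 on that scale). POU4F2, known from retinal ganglion cells, was most abundant at day 60. It had 49.9 and 45.3 CPM in FEZ1-null and 8.66 and 16.7 CPM in wildtype organoids of day 60, and 0 counts in FEZ1-null and 187 in wildtype organoids of day 10 (interaction 7.47 on that scale).

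The remaining 5 of these genes are not sensory regulators by name. KLHL40, which stabilises thin filaments in skeletal muscle, had 19 counts in FEZ1-null and 8 in wildtype organoids of day 60, and 0 in FEZ1-null and 477 in wildtype organoids of day 10 (7.89 on the log2 CPM scale). The neurexin ligand gene NXPH1 had 1 count in FEZ1-null and 384 in wildtype organoids of day 10 (8.03), and FRMPD1 had 2 in FEZ1-null and 364 in wildtype organoids (8.05). ITGA8, an integrin subunit, had 1.54 and 1.95 CPM in FEZ1-null and 3.31 and 4.22 CPM in wildtype organoids of day 60, and 0 counts in FEZ1-null and 640 in wildtype organoids of day 10 (6.17). B3GALT2, a galactosyltransferase, was at similar levels in the other 3 groups, with 11.3 and 9.58 CPM in FEZ1-null and 15.6 and 12.2 CPM in wildtype organoids of day 60, and 8.83 and 9.59 CPM in wildtype organoids of day 10. B3GALT2 had 0 counts in FEZ1-null organoids of day 10 (6.09), and 0.0607 and 0.129 CPM in FEZ1-null and 0.154 and 0.057 CPM in wildtype organoids of B27 and B29.

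Promoters of genes with a positive interaction are shown because the genes moved together and because proneural factors, some of which are described further on, bind short motifs called E-boxes. The letters searched were CAGCTG, which reads the same on both strands, and CAGATG with its reverse complement CATCTG. The 3 promoters below have the most matches among 45 named genes of this kind with a RefSeq promoter. Each runs 250 bases before to 50 after the start in RefSeq's GRCh38.p14 table, 5′ to 3′ on the gene's strand, with matches in capitals. They are B3GALT2 at chr1:193186564-193186863 (minus strand), KLHL40 at chr3:42685287-42685586 (plus strand) and IRX2, an Iroquois homeobox gene, at chr5:2751628-2751927 (minus strand).
B3GALT2: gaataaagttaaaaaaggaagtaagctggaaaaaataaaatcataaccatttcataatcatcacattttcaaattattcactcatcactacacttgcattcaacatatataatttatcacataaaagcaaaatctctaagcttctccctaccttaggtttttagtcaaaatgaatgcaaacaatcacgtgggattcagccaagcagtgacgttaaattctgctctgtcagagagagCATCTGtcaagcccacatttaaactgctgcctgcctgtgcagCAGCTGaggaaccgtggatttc
KLHL40: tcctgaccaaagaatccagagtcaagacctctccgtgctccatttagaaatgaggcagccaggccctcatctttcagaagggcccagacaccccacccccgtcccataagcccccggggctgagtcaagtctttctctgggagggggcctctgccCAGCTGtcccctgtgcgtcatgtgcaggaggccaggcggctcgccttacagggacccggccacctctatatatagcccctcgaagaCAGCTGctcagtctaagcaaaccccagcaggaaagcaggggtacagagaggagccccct
IRX2: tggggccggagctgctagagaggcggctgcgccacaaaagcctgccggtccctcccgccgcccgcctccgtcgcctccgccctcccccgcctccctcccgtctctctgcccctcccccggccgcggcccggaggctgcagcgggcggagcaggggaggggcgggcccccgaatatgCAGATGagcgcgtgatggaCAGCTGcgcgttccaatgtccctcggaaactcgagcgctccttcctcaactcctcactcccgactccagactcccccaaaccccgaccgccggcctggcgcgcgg

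CAGCTG was present in 21.4% of 566 promoters of genes with a positive interaction and in 11.7% of 94 promoters of genes with a negative one, against 17.4% of 13141 promoters of all genes tested. CAGATG was present in 14.7%, 8.51% and 10.5% of the same promoters, and in 14.8% of all 27305 promoters in the table. A match describes the letters of the window and not a bound site.

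Genes of sensory placodes and neural crest were the lists with the largest day 10 part. Over all genes tested 4.41% had a positive and 0.743% a negative interaction. Counts of called members in this and all later lists stand against these shares. Of 14 placode and sensory neuron genes tested, 11 had a positive and 0 a negative interaction, with a median of 5.69 on the log2 CPM scale against 0.04 over all genes tested. Their median knockout difference was 1.17 at day 60 and -5.01 at day 10 in B16, and 0.49 at day 10 in B27 and B29. Summed over the list, the level was 254 to 256 CPM in FEZ1-null and 181 to 197 CPM in wildtype organoids of day 60. At day 10 it was 76.5 to 80.5 CPM in FEZ1-null and 815 to 1077 CPM in wildtype organoids of B16, and 79.9 to 107 CPM in FEZ1-null and 87.4 to 91.1 CPM in wildtype organoids of B27 and B29. NEUROD1, a proneural factor shared by sensory ganglia and brain, had 42.7 and 40.8 CPM in FEZ1-null and 24.4 and 28.0 CPM in wildtype organoids of day 60. It had 1.83 and 0.855 CPM in FEZ1-null and 82.0 and 99.8 CPM in wildtype organoids of day 10. Its interaction was 6.78 ± 0.39 (adjusted p = 8.94e-05), and it kept at least 24.4 CPM in every day 60 library.

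Of 16 neural crest genes tested, 10 had a positive and 0 a negative interaction, with a median of 3.12. The median knockout difference was 0.05 at day 60 and -3.44 at day 10 in B16, and 0.16 at day 10 in B27 and B29. The summed level was 242 to 285 CPM in FEZ1-null and 222 to 294 CPM in wildtype organoids of day 60, and 254 to 339 CPM in FEZ1-null and 1345 to 1918 CPM in wildtype organoids of day 10. The sum in B27 and B29 was 261 to 279 CPM in FEZ1-null and 245 to 256 CPM in wildtype organoids. TFAP2B, an early factor of the crest, had 1.94 and 3.74 CPM in FEZ1-null and 1.16 and 0.661 CPM in wildtype organoids of day 60, and 2.94 and 1.28 CPM in FEZ1-null and 254 and 392 CPM in wildtype organoids of day 10. Its interaction was 8.93 ± 0.70 (adjusted p = 0.000287). TFAP2B in B27 and B29 had 1.70 and 8.55 CPM in FEZ1-null and 3.65 and 2.22 CPM in wildtype organoids. SOX10, which marks migrating crest and its glia, had at most 2.77 CPM in any day 60 library, and 11.4 and 4.89 CPM in FEZ1-null and 186 and 281 CPM in wildtype organoids of day 10 (4.78 ± 0.65, adjusted p = 0.00386). PAX3, of the dorsal neural tube and crest, had 0.855 and 4.41 CPM in FEZ1-null and 0.315 and 0.203 CPM in wildtype organoids of day 60. At day 10 PAX3 had 2.71 and 2.80 CPM in FEZ1-null and 114 and 177 CPM in wildtype organoids (9.06 ± 0.95, adjusted p = 0.00114, and 0.0504 without FEZ1-null day 10 replicate 1). PAX3 in B27 and B29 had 2.55 and 11.4 CPM in FEZ1-null and 7.09 and 7.13 CPM in wildtype organoids. PAX3 is 1 of the genes named for opposite signs, with the knockout higher at day 60, a difference that did not pass the test (adjusted p = 0.292), and lower at day 10. PDYN, the prodynorphin gene, is another, with 6.44 and 11.9 CPM in FEZ1-null and 1.31 and 1.47 CPM in wildtype organoids of day 60. At day 10 PDYN had 0.53 and 0.285 CPM in FEZ1-null and 12.9 and 16.6 CPM in wildtype organoids (7.91 ± 0.57, adjusted p = 0.000226), and its day 60 difference did not pass the test (0.0775).

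**Figure D4:**
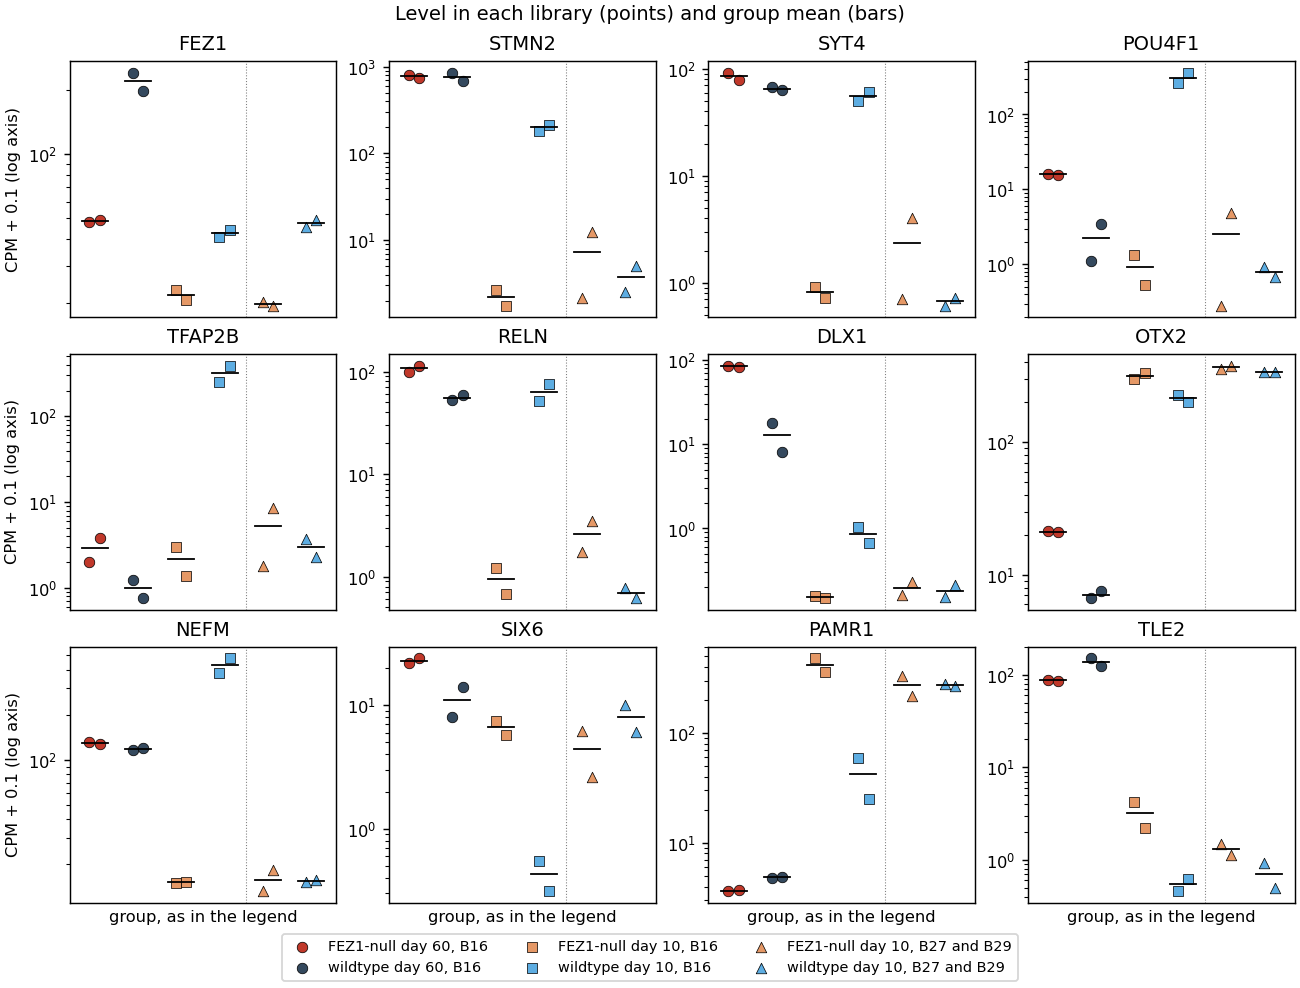
Each panel shows 1 gene, with points for the CPM (plus 0.1, log axis) in each library and bars for group means; the dotted line parts the B16 groups on the left from the B27 and B29 libraries on the right. STMN2, SYT4 and RELN are low in FEZ1-null day 10 organoids and in all B27 and B29 libraries and high in the other 3 B16 groups, POU4F1 and TFAP2B are highest in wildtype day 10 organoids of B16, and at day 60 DLX1 and OTX2 have both FEZ1-null libraries above both wildtype ones, a difference that passed the test for OTX2 (adjusted p = 0.0193) and not for DLX1 (0.0617).

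At day 10 the pan-neuronal list was highest in wildtype organoids of B16, and was present at a lower level in the other libraries. Its summed level was 7343 to 7515 CPM in FEZ1-null and 6608 to 8460 CPM in wildtype organoids of day 60. At day 10 it was 884 to 1088 CPM in FEZ1-null and 2908 to 3389 CPM in wildtype organoids of B16. The sum in B27 and B29 was 737 to 910 CPM in FEZ1-null and 770 to 805 CPM in wildtype organoids. Of 18 pan-neuronal genes tested, 13 had a positive and 0 a negative interaction (median 2.87), with a median knockout difference of -0.03 at day 60 and -2.91 at day 10, and -0.01 at day 10 in B27 and B29. STMN2, a tubulin-binding protein of growing axons, had 809 and 746 CPM in FEZ1-null and 850 and 687 CPM in wildtype organoids of day 60. At day 10 STMN2 had 2.53 and 1.66 CPM in FEZ1-null and 183 and 215 CPM in wildtype organoids, and 2.06 and 12.2 CPM in FEZ1-null and 2.42 and 4.96 CPM in wildtype organoids of B27 and B29. The genotypes overlapped at day 60 and were far apart at day 10, with an interaction of 6.59 ± 0.32 (adjusted p = 5.62e-05). NEFM, a neurofilament subunit, had 131 and 126 CPM in FEZ1-null and 116 and 121 CPM in wildtype organoids of day 60, and 15.0 and 15.2 CPM in FEZ1-null and 380 and 476 CPM in wildtype organoids of day 10 (4.94 ± 0.24, adjusted p = 5.57e-05). NEFM in B27 and B29 had 13.2 and 18.3 CPM in FEZ1-null and 15.1 and 15.7 CPM in wildtype organoids. The neuronal RNA-binding gene ELAVL4 had 78.1 and 70.1 CPM in FEZ1-null and 69.7 and 53 CPM in wildtype organoids of day 60, and 0.412 and 0.855 CPM in FEZ1-null and 44.4 and 44.4 CPM in wildtype organoids of day 10 (6.35 ± 0.37, adjusted p = 8.94e-05). ELAVL4 in B27 and B29 had 0.607 and 1.41 CPM in FEZ1-null and 1.39 and 1.65 CPM in wildtype organoids.

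Genes of transmission followed the neuronal genes in part, while over all genes tested 4.41% were positive and 0.743% negative. Of 20 synaptic vesicle and release genes, 8 had a positive and 0 a negative interaction (median 0.90). SYT4, a vesicle protein of the synaptotagmin family, had 92.0 and 78.1 CPM in FEZ1-null and 68.2 and 62.9 CPM in wildtype organoids of day 60. At day 10 SYT4 had 0.824 and 0.617 CPM in FEZ1-null and 50.3 and 60.9 CPM in wildtype organoids (6.65 ± 0.31, adjusted p = 5.57e-05). The complexin gene CPLX1, which regulates vesicle fusion, had 88.6 and 90.6 CPM in FEZ1-null and 95.4 and 76.5 CPM in wildtype organoids of day 60, and 3 counts in FEZ1-null and 479 in wildtype organoids of day 10 (6.08 on the log2 CPM scale). Of 18 genes of glutamatergic transmission, 6 were positive and 1 negative (median 0.20). GRIA2, an AMPA receptor subunit, had 418 and 339 CPM in FEZ1-null and 505 and 384 CPM in wildtype organoids of day 60, and 0.118 and 0.142 CPM in FEZ1-null and 36.3 and 46.7 CPM in wildtype organoids of day 10 (8.0 ± 0.43, adjusted p = 8.14e-05). SLC17A6, a vesicular glutamate transporter, had an interaction of 5.84 ± 0.48 (adjusted p = 0.000359).

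Factors of newborn neurons had the same layout. Of 13 intermediate progenitor genes tested, 9 had a positive and 0 a negative interaction (median 3.41), with a median knockout difference of 0.30 at day 60 and -2.95 at day 10. The proneural gene NEUROD4 had 0.942 and 0.95 CPM in FEZ1-null and 31.6 and 38.4 CPM in wildtype organoids of day 10 (5.57 ± 0.33, adjusted p = 8.94e-05). PPP1R17, a phosphatase inhibitor found in intermediate progenitors, had 19.1 and 17.6 CPM in FEZ1-null and 16.5 and 13.4 CPM in wildtype organoids of day 60, and 0.648 and 0.427 CPM in FEZ1-null and 65.4 and 74.1 CPM in wildtype organoids of day 10 (7.32 ± 0.32, adjusted p = 5.57e-05). In the B27 and B29 libraries NEUROD4 lay between 0.771 and 3.73 CPM and PPP1R17 between 0.303 and 0.965 CPM.

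Of 11 Cajal-Retzius and preplate genes, which mark the earliest cortical neurons, 3 had a positive and 0 a negative interaction, while all 11 had a positive sign (median 1.51). RELN, the secreted guide of cortical layering, had 99.7 and 114 CPM in FEZ1-null and 52.2 and 58.6 CPM in wildtype organoids of day 60. At day 10 RELN had 1.12 and 0.57 CPM in FEZ1-null and 52.0 and 75.1 CPM in wildtype organoids (7.21 ± 0.42, adjusted p = 8.94e-05). EBF3, of the same early neurons, had 63.1 and 61.4 CPM in FEZ1-null and 30.8 and 23.6 CPM in wildtype organoids of day 60, and an interaction of 6.67 ± 0.30 (adjusted p = 5.57e-05). Both genes had non-overlapping genotypes at both days, with the knockout above wildtype at day 60 and below it at day 10. The day 60 differences did not pass the test (adjusted p = 0.3 and 0.0957). Of 18 genes of cortical layer neurons, 3 were positive and 0 negative (median 0.07). POU3F3, a factor of upper layers, had 580 and 592 CPM in FEZ1-null and 507 and 431 CPM in wildtype organoids of day 60, and 0.53 and 0.665 CPM in FEZ1-null and 4.23 and 5.16 CPM in wildtype organoids of day 10 (3.27 ± 0.30, adjusted p = 0.000565).

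Among genes with the larger log2 CPM difference at day 60, ventral forebrain and boundary genes led. Of 15 GABAergic and ventral forebrain genes tested, 6 had a positive and 0 a negative interaction (median 2.25), and the median knockout difference was 2.42 at day 60 and -0.14 at day 10. The summed level was 674 to 701 CPM in FEZ1-null and 190 to 268 CPM in wildtype organoids of day 60, and 300 to 330 CPM in FEZ1-null and 349 to 410 CPM in wildtype organoids of day 10. The sum in B27 and B29 was 353 to 390 CPM in FEZ1-null and 410 to 437 CPM in wildtype organoids. DLX1, a homeobox factor of inhibitory interneurons, had 86.7 and 82.7 CPM in FEZ1-null and 18.0 and 7.93 CPM in wildtype organoids of day 60, and 2 counts in FEZ1-null and 32 in wildtype organoids of day 10. Its interaction was 5.25 on the log2 CPM scale, with a call (adjusted p = 0.00564) that was lost without FEZ1-null day 10 replicate 1 or 2 (0.109 and 0.0575). By fitted fold change, which depends on the prior at 2 counts, the day 10 part of DLX1 was the larger one (-3.72, against 2.71 at day 60). DLX1 in B27 and B29 had 0.0607 and 0.129 CPM in FEZ1-null and 0.0514 and 0.114 CPM in wildtype organoids. Its neighbour DLX2 had 68.4 and 75.9 CPM in FEZ1-null and 19.3 and 9.20 CPM in wildtype organoids of day 60, and under 1 CPM in every day 10 library (3.83 ± 0.78, adjusted p = 0.0265, and up to 0.183 without 1 library). The day 60 differences of DLX1 and DLX2 did not pass the test on their own (adjusted p = 0.0617 and 0.0822). SST, the somatostatin gene of interneurons and some sensory cells, had at most 4.04 CPM in any day 60 library, and 0.236 and 0 CPM in FEZ1-null and 92.5 and 105 CPM in wildtype organoids of day 10 (9.33 ± 0.71, adjusted p = 0.000271).

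OTX2, a factor of forebrain and midbrain, passed the test both at day 60 and in the interaction, as did FEZ1, NAP1L6P and P2RX3. It had 21.3 and 20.9 CPM in FEZ1-null and 6.56 and 7.47 CPM in wildtype organoids of day 60, and 298 and 332 CPM in FEZ1-null and 226 and 200 CPM in wildtype organoids of day 10. The knockout was higher at both days, by 1.59 at day 60 (adjusted p = 0.0193) and 0.56 at day 10 (0.051), with an interaction of 1.02 ± 0.23 (adjusted p = 0.039). With the B27 and B29 libraries OTX2 had an interaction of 1.45 (adjusted p = 0.00486). In B16 the call was lost without any 1 of the wildtype or FEZ1-null day 60 libraries or the wildtype day 10 libraries (adjusted p = 0.0938 to 0.205), with DESeq2's size factors (0.0504) and with replicate number as a block (0.0738). NAP1L6P, a pseudogene that can hold reads of its relatives, had 0.228 and 0.154 CPM in FEZ1-null and 1.94 and 2.13 CPM in wildtype organoids of day 60. At day 10 NAP1L6P had 4.47 and 3.99 CPM in FEZ1-null and 6.12 and 5.69 CPM in wildtype organoids (interaction -2.90 ± 0.45, adjusted p = 0.00671, and 0.0688 without FEZ1-null day 60 replicate 2).

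Further genes with a larger day 60 part on the log2 CPM scale had at most 1.34 CPM in any day 10 library. PAX5, a midbrain-hindbrain boundary factor, had 6.95 and 4.66 CPM in FEZ1-null and 0.893 and 1.98 CPM in wildtype organoids of day 60 (3.32 ± 0.75, adjusted p = 0.0419). PRDM13, a zinc finger factor of inhibitory neurons in the mouse spinal cord, had 6.33 and 7.79 CPM in FEZ1-null and 1.42 and 1.83 CPM in wildtype organoids of day 60, and 3 counts in FEZ1-null and 10 in wildtype organoids of day 10 (2.97 on the log2 CPM scale, adjusted p = 0.0261). HOTAIRM1, a noncoding RNA, had 6.55 and 12.1 CPM in FEZ1-null and 1.37 and 2.18 CPM in wildtype organoids of day 60, and 0 counts in FEZ1-null and 9 in wildtype organoids of day 10 (3.91, adjusted p = 0.0311). With 0 counts in a group its fitted fold change depends on the prior, and on that scale the day 10 part of HOTAIRM1 was the larger one. Whether counting used the strand is not given, so reads of HOTAIRM1 and of the genes opposite it could not be told apart. Each of these 3 calls was lost without at least 1 library, with adjusted p up to 0.183, 0.163 and 0.149. Of 19 HOX genes tested, 0 were called by edgeR, DESeq2 or limma-voom and 3 had an unadjusted p below 0.05. The sign was positive for 18 of the 19 (median 1.54), with a median knockout difference of 1.24 at day 60 and 0.00 at day 10. HOXC4 had 17.7 and 32.2 CPM in FEZ1-null and 8.77 and 5.79 CPM in wildtype organoids of day 60 (adjusted p = 0.187).

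Genes of other regions changed in both directions, while over all genes tested 4.41% were positive and 0.743% negative. Of 17 midbrain and hindbrain genes tested, 5 were positive and 0 negative (median 1.88). IRX2 had 18.3 and 21.5 CPM in FEZ1-null and 6.56 and 9.25 CPM in wildtype organoids of day 60, and 11.2 and 11.3 CPM in FEZ1-null and 22.8 and 26.6 CPM in wildtype organoids of day 10 (2.46 ± 0.30, adjusted p = 0.00217). Of 14 forebrain genes, 2 were positive and 2 negative (median -0.80), the positive ones being OTX2 and NR2F1 and the negative ones SIX6 and DMRTA2. NR2F1, a nuclear receptor of posterior cortex, had an interaction of 1.84 ± 0.29 (adjusted p = 0.00844), and DMRTA2, of early cortex, one of -2.50 ± 0.52 (adjusted p = 0.0284).

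Eye genes were among the negative interactions, while over all genes tested 4.41% were positive and 0.743% negative. Of 17 retina and pigment epithelium genes tested, 2 were positive and 3 negative (median 0.11). SIX6, of the eye field and hypothalamus, had 22.1 and 24.0 CPM in FEZ1-null and 7.88 and 14.1 CPM in wildtype organoids of day 60. At day 10 SIX6 had 7.36 and 5.70 CPM in FEZ1-null and 0.45 and 0.211 CPM in wildtype organoids of B16, against 6.07 and 2.51 CPM in FEZ1-null and 9.97 and 5.93 CPM in wildtype organoids of B27 and B29 (-3.17 ± 0.54, adjusted p = 0.012, and up to 0.0808 without 1 library). The wildtype day 10 libraries of B16 were the low ones. With the B27 and B29 libraries the interaction of SIX6 was 1.94 and did not pass the test.

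The other large negative interactions had different layouts. In PAMR1, FOXA1 and FGF19, as in SIX6, wildtype day 10 organoids of B16 were below all other day 10 libraries. PAMR1, a secreted protein with a peptidase-like domain, had 3.53 and 3.59 CPM in FEZ1-null and 4.73 and 4.83 CPM in wildtype organoids of day 60, and 478 and 361 CPM in FEZ1-null and 59.2 and 25.0 CPM in wildtype organoids of day 10 (-3.74 ± 0.54, adjusted p = 0.00525). In the 4 libraries of B27 and B29 PAMR1 lay between 217 and 327 CPM. FOXA1, a forkhead factor of floor plate and endoderm, had 0.228 and 0.512 CPM in FEZ1-null and 0.315 and 3 CPM in wildtype organoids of day 60, where wildtype replicate 2 was the highest library. At day 10 FOXA1 had 16 CPM in both FEZ1-null and 2.03 and 0.791 CPM in wildtype organoids. Its interaction was -5.61 ± 1.21 (adjusted p = 0.0345), and -3.23 (0.214) without wildtype day 60 replicate 2. The growth factor gene FGF19 had 7.52 and 11.0 CPM in FEZ1-null and 5.15 and 4.17 CPM in wildtype organoids of day 60, and 49 counts in FEZ1-null and 2 in wildtype organoids of day 10 (-2.34 on the log2 CPM scale, adjusted p = 0.0391). TLE2, a corepressor of the Groucho family, had 88.6 and 84.6 CPM in FEZ1-null and 150 and 123 CPM in wildtype organoids of day 60, and 4.12 and 2.09 CPM in FEZ1-null and 0.36 and 0.527 CPM in wildtype organoids of day 10 (-3.44 ± 0.49, adjusted p = 0.00469). TLE2 in B27 and B29 had 1.40 and 1.03 CPM in FEZ1-null and 0.822 and 0.399 CPM in wildtype organoids, so that the FEZ1-null day 10 libraries of B16 were the highest of that day.

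In a further group of genes wildtype day 60 replicate 2 was the highest library of that day and both FEZ1-null libraries lay below both wildtype ones. COL14A1, a fibril-associated collagen, had 2.28 and 3.64 CPM in FEZ1-null and 10.2 and 79.9 CPM in wildtype organoids of day 60, and 3.18 and 3.85 CPM in FEZ1-null and 1.17 and 1.79 CPM in wildtype organoids of day 10 (-5.18 ± 1.21, adjusted p = 0.049). SMIM24, TOR4A, PRRX2 and IGFBP6 were the genes named for opposite signs in this direction, with the knockout lower at day 60 and higher at day 10. Their day 60 differences did not pass edgeR's test (adjusted p = 0.306 to 0.408), and at day 10 those of TOR4A (0.0156) and IGFBP6 (0.0365) passed and those of SMIM24 (0.131) and PRRX2 (0.0517) did not. PRRX2, a homeobox factor of mesenchyme, had 0.114 and 0.307 CPM in FEZ1-null and 0.735 and 2.18 CPM in wildtype organoids of day 60, and 32.5 and 18.0 CPM in FEZ1-null and 9.77 and 6.75 CPM in wildtype organoids of day 10 (-4.34 ± 0.87, adjusted p = 0.0247). TOR4A, of the torsin family, had 1.31 and 2.46 CPM in FEZ1-null and 2.89 and 10.6 CPM in wildtype organoids of day 60, and 37.0 and 25.7 CPM in FEZ1-null and 5.63 and 3.69 CPM in wildtype organoids of day 10 (-4.57 ± 0.81, adjusted p = 0.0142). SMIM24, a small membrane protein, had an interaction of -4.67 ± 1.04 (adjusted p = 0.0396). IGFBP6, a binding protein of insulin-like growth factors, had one of -4.08 ± 0.74 (adjusted p = 0.0156).

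EMILIN1, of elastic fibres, CD248, of pericytes and fibroblasts, PLCG2, a phospholipase, and NCCRP1 were named for a larger day 60 part. Their interactions lay between -2.65 and -2.36, with adjusted p between 0.0196 and 0.0427. EMILIN1 had 9.52 and 9.22 CPM in FEZ1-null and 17.1 and 45.9 CPM in wildtype organoids of day 60, and 46.6 and 28.6 CPM in FEZ1-null and 21.1 and 19.1 CPM in wildtype organoids of day 10. Most named genes were chosen for a large interaction or a small p. How their calls held below therefore does not describe all called genes of either direction. Of the 20 negative genes named, TLE2 alone remained called whichever single library was left out. Without FEZ1-null day 60 replicate 1, FEZ1-null day 60 replicate 2 or wildtype day 10 replicate 2, 17, 16 and 17 of the 20 calls were lost. Without FEZ1-null day 10 replicate 1 or wildtype day 10 replicate 1, 10 and 11 were lost, and without wildtype day 60 replicate 2, 8. The largest adjusted p that any of them reached was 0.249, in COL14A1. Of the 53 positive genes named, 42 remained called whichever library was left out.

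**Figure D5:**
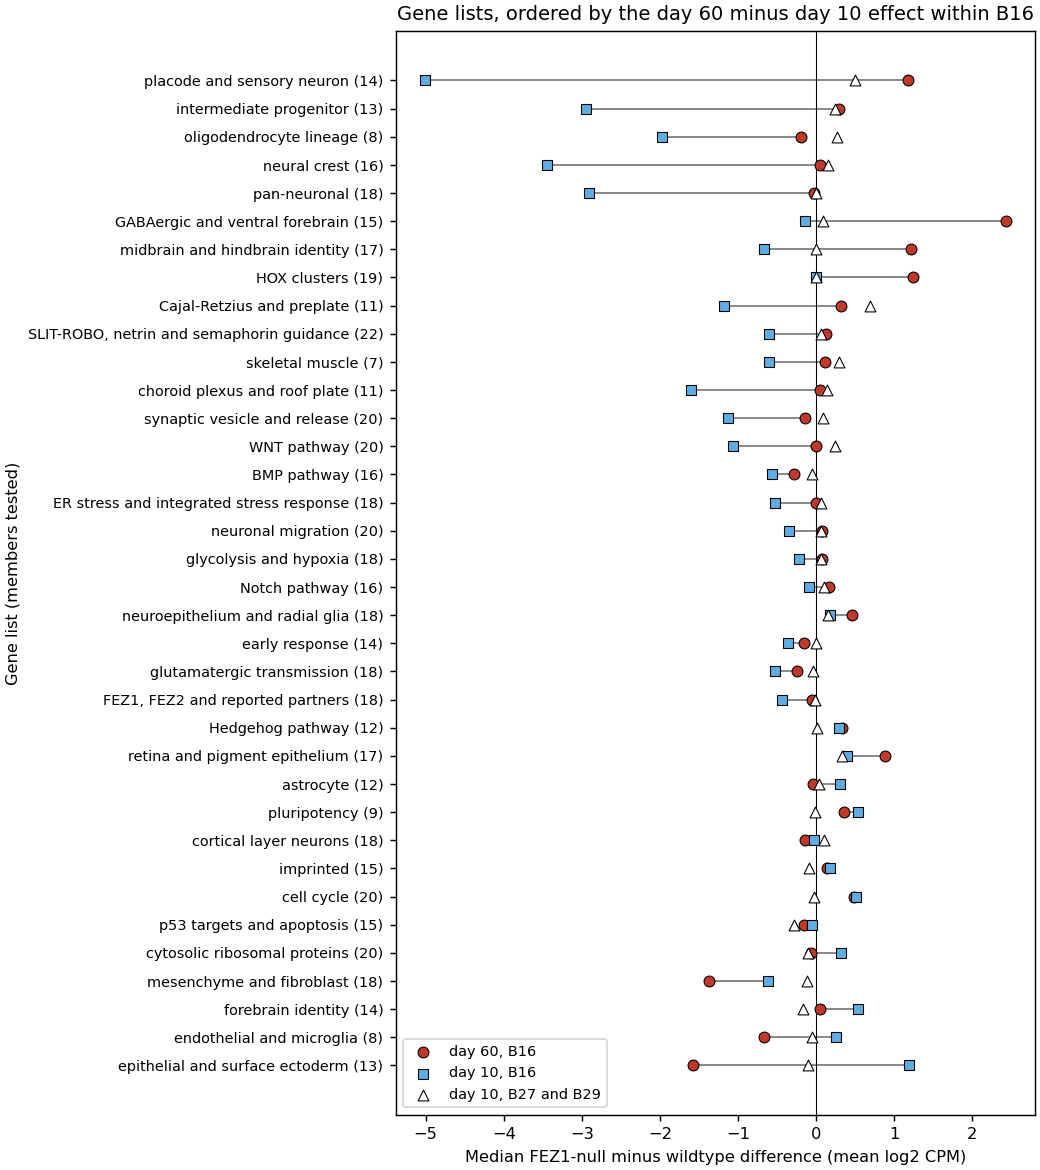
For each gene list (number of members tested in brackets) the median over members of the FEZ1-null minus wildtype difference of mean log2 CPM is shown at day 60 in B16 (circles), at day 10 in B16 (squares) and at day 10 in B27 and B29 (open triangles). Placode, crest and neuronal lists have day 10 squares far to the left (-5.01, -3.44 and -2.91) and triangles near 0, while the GABAergic list has its circle to the right (2.42).

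In each signalling list most genes were not called, but the positive share was above that of all genes tested. Over all genes tested 4.41% were positive and 0.743% negative, and the Hedgehog share rests on 1 gene. Of 20 WNT genes tested, 7 were positive and 0 negative (median 0.77). WNT8B, a ligand of the cortical hem, had at most 1.77 CPM in any day 60 library, and 58.0 and 37.8 CPM in FEZ1-null and 148 and 157 CPM in wildtype organoids of day 10 (2.76 ± 0.41, adjusted p = 0.0062). WNT8B in B27 and B29 had 54.5 and 118 CPM in FEZ1-null and 70.8 and 75.3 CPM in wildtype organoids. The feedback inhibitor NKD1 had 63.6 and 84.2 CPM in FEZ1-null and 201 and 274 CPM in wildtype organoids of day 10 (2.31 ± 0.30, adjusted p = 0.00311). Of 16 BMP genes, 3 were positive and 1 negative (median 0.72), the negative one being the target gene ID2 (-1.22 ± 0.26, adjusted p = 0.0339). GDF7, a roof plate ligand, had 2.56 to 4.88 CPM in the day 60 libraries, and 1.83 and 0.57 CPM in FEZ1-null and 54.6 and 104 CPM in wildtype organoids of day 10 (5.80 ± 0.73, adjusted p = 0.00262). The target gene ID4 had an interaction of 1.75 ± 0.22 (adjusted p = 0.00269), opposite in sign to ID2. Of 12 Hedgehog genes 1 was positive, the inhibitor HHIP (4.79 ± 0.69, adjusted p = 0.00508), and of 16 Notch genes 3 were positive. No gene was negative in either list, and the medians were 0.17 and 0.28.

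Migration and guidance genes bear on the stated subject of the series. Over all genes tested 4.41% were positive and 0.743% negative. Of 20 neuronal migration genes tested, 6 were positive and 0 negative (median 0.32), and of 22 genes of SLIT-ROBO, netrin and semaphorin guidance 7 were positive and 1 negative (median 1.33). DCX, the microtubule-binding doublecortin of migrating neurons, had 639 and 587 CPM in FEZ1-null and 679 and 498 CPM in wildtype organoids of day 60. At day 10 DCX had 10.9 and 20.5 CPM in FEZ1-null and 92.6 and 115 CPM in wildtype organoids of B16, and 17.0 and 17.4 CPM in FEZ1-null and 20.3 and 19.1 CPM in wildtype organoids of B27 and B29 (2.78 ± 0.41, adjusted p = 0.00595). CXCR4, a chemokine receptor of migrating cells, had 27.9 and 23.7 CPM in FEZ1-null and 90.2 and 112 CPM in wildtype organoids of day 10 (2.53 ± 0.31, adjusted p = 0.00247). The semaphorin receptor NRP2 had 63.2 and 67.7 CPM in FEZ1-null and 67.5 and 75.9 CPM in wildtype organoids of day 60, and 6.48 and 5.70 CPM in FEZ1-null and 218 and 314 CPM in wildtype organoids of day 10 (5.32 ± 0.31, adjusted p = 8.94e-05). SEMA3C, a secreted semaphorin, and UNC5C, a netrin receptor, had interactions of 6.21 ± 0.33 and 5.01 ± 0.38 (adjusted p = 8.14e-05 and 0.000266).

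Of 18 genes of FEZ1, FEZ2 and reported partners, 2 were positive and 1, FEZ1 itself, negative (median 0.17). Over all genes tested 4.41% were positive and 0.743% negative. KIF5A, a neuronal kinesin heavy chain, had 297 and 295 CPM in FEZ1-null and 338 and 300 CPM in wildtype organoids of day 60, and 7.48 and 8.36 CPM in FEZ1-null and 22.6 and 22.6 CPM in wildtype organoids of day 10. Its interaction was 1.40 ± 0.22 (adjusted p = 0.00671), with adjusted p up to 0.0604 without 1 library. DCC, a netrin receptor reported to bind FEZ1, had 57.4 and 56.2 CPM in FEZ1-null and 84.3 and 63.4 CPM in wildtype organoids of day 60, and 5.95 and 9.83 CPM in FEZ1-null and 45.4 and 63.3 CPM in wildtype organoids of day 10 (2.40 ± 0.38, adjusted p = 0.00861, and 0.0545 without wildtype day 10 replicate 2).

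Among markers of radial glia and of division 1 gene passed the test of the interaction. Over all genes tested 4.41% were positive and 0.743% negative, and 1 of 18 radial glia genes is near the first share. Of 18 neuroepithelium and radial glia genes tested, 1 was positive and 0 negative (median 0.23). The 1 was TNC, an extracellular matrix protein of outer radial glia, with 34.5 and 42.9 CPM in FEZ1-null and 119 and 125 CPM in wildtype organoids of day 10 (2.10 ± 0.32, adjusted p = 0.0067). In B27 and B29 TNC had 21.9 and 16.3 CPM in FEZ1-null and 18.0 and 13.5 CPM in wildtype organoids. Of 20 cell cycle genes 0 were called by edgeR, DESeq2 or limma-voom and 2 had an unadjusted p below 0.05 (median -0.04). Their median knockout difference was 0.48 at day 60 and 0.51 at day 10 in B16, and -0.03 at day 10 in B27 and B29. At day 10 in B16, 5 were called higher in the knockout, against 3.52% of all genes tested. The summed level was 1797 to 1845 CPM in FEZ1-null and 1189 to 1327 CPM in wildtype organoids of day 60. At day 10 it was 4064 to 4317 CPM in FEZ1-null and 2888 to 3298.5 CPM in wildtype organoids of B16. MKI67, the proliferation marker, had 198 and 202 CPM in FEZ1-null and 136 and 114 CPM in wildtype organoids of day 60, and 175 and 302 CPM in FEZ1-null and 282 and 270 CPM in wildtype organoids of day 10 (0.89 ± 0.34, adjusted p = 0.209). TYMS, of thymidylate synthesis, had an interaction of 0.61 ± 0.20 (adjusted p = 0.147). With the B27 and B29 day 10 libraries 4 of the 20 cell cycle genes were called, where 0.287% of all genes were, and TYMS was 1 of them (0.82, adjusted p = 0.043). Of 9 pluripotency genes 0 were called by the same 3 tools and 2 had an unadjusted p below 0.05 (median 0.07), and DPPA4, a chromatin protein of pluripotent cells, had 0.92 ± 0.37 (adjusted p = 0.225).

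Among lists for glia and other cell types, the oligodendrocyte lineage held the most called genes. The share over all genes tested was 4.41% positive and 0.743% negative. Each list of this paragraph had a positive share above 4.41%, resting on 1 or 2 genes outside the oligodendrocyte lineage. Of 8 oligodendrocyte lineage genes tested, 5 were positive and 0 negative (median 3.18), and SOX10 among them also belongs to the crest list. OLIG2, a factor of ventral progenitors, had 8.95 and 9.07 CPM in FEZ1-null and 1.58 and 3.51 CPM in wildtype organoids of day 60, and 2 counts in FEZ1-null and 88 in wildtype organoids of day 10 (5.77 on the log2 CPM scale, adjusted p = 0.00336). Of 12 astrocyte genes 1 was positive, of 11 choroid plexus and roof plate genes 2, and of 7 skeletal muscle genes 1, with none negative and medians of 0.10, 1.01 and 1.25. The muscle gene was the actin ACTC1, with 5.98 and 8.04 CPM in FEZ1-null and 1.26 and 1.17 CPM in wildtype organoids of day 60, and 6.95 and 3.66 CPM in FEZ1-null and 113 and 160 CPM in wildtype organoids of day 10 (7.23 ± 0.50, adjusted p = 0.000183). The muscle regulators MYOD1 and MYOG stayed below 1 CPM in all 8 libraries.

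Of 18 mesenchyme and fibroblast genes tested, 0 were called by edgeR or limma-voom, 1 by DESeq2 and 4 at an unadjusted p below 0.05 (median -0.53). In B16 the summed level was lower in the knockout at both days, at 866 to 1067 CPM in FEZ1-null and 2379.6 to 4782 CPM in wildtype organoids of day 60. At day 10 it was 873 to 934 CPM in FEZ1-null and 1644 to 2059 CPM in wildtype organoids. In B27 and B29 the sum was not lower in the knockout, at 783 to 834 CPM in FEZ1-null and 767 to 780 CPM in wildtype organoids. COL1A2, a collagen I chain, had 203 and 270 CPM in FEZ1-null and 569 and 822 CPM in wildtype organoids of day 60, and 119 and 105 CPM in FEZ1-null and 557 and 747 CPM in wildtype organoids of day 10. The genotypes did not overlap at either day, the day 10 effect passed the test (-2.54, adjusted p = 0.000448), and the interaction did not (0.99 ± 0.34, adjusted p = 0.162). In B27 and B29 COL1A2 had 84.1 and 78.3 CPM in FEZ1-null and 146 and 139 CPM in wildtype organoids.

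Of 13 epithelial and surface ectoderm genes tested, 1 was positive and 1 negative (median -2.66), and 12 of the 13 had a negative sign. CLDN6, a tight junction protein, had 6.50 and 5.48 CPM in FEZ1-null and 7.09 and 12.4 CPM in wildtype organoids of day 60, and 58.3 and 32.0 CPM in FEZ1-null and 15.0 and 14.2 CPM in wildtype organoids of day 10 (-2.33 ± 0.48, adjusted p = 0.0278). The summed level of the list was 52.5 to 53.9 CPM in FEZ1-null and 70.0 to 343 CPM in wildtype organoids of day 60. At day 10 the sum was 551 to 865 CPM in FEZ1-null and 315 to 348 CPM in wildtype organoids of B16. In B27 and B29 it was 447 to 593 CPM in FEZ1-null and 537 to 570 CPM in wildtype organoids. Of 8 endothelial and microglia genes, 0 were positive and 1, AIF1, was negative (-3.21 ± 0.56, adjusted p = 0.013; list median -1.83). The vessel gene PECAM1 was at 18.5 CPM in wildtype day 60 replicate 2 and at most 0.36 CPM in the other 7 libraries, and the part of that library in these results was not tested except by leaving it out, which left 634 positive and 60 negative calls.

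Stress and housekeeping lists gave 0 to 2 calls each, where 4.41% of all genes tested were positive and 0.743% negative. Of 18 ER stress genes 1 was positive, of 15 p53 and apoptosis genes 2 and of 14 early response genes 1, with none negative and medians of 0.42, -0.09 and 0.22. The apoptosis gene PMAIP1 had 0.353 and 0.665 CPM in FEZ1-null and 3.96 and 4.80 CPM in wildtype organoids of day 10 (3.42 ± 0.44, adjusted p = 0.0029). EGR1, an immediate early gene, had 4.53 and 4.08 CPM in FEZ1-null and 36.1 and 51.6 CPM in wildtype organoids of day 10 (3.04 ± 0.33, adjusted p = 0.00138). None of 18 glycolysis and hypoxia genes, 15 imprinted genes or 20 cytosolic ribosomal protein genes was called by edgeR or limma-voom, and the medians were 0.28, -0.01 and -0.39. DESeq2 called 1, 1 and 0 of them, and 3, 3 and 0 had an unadjusted p below 0.05. The imprinted gene DLK1 had 60.3 and 79.2 CPM in FEZ1-null and 107 and 594 CPM in wildtype organoids of day 60, and 4017 and 2621 CPM in FEZ1-null and 751 and 138 CPM in wildtype organoids of day 10 (-5.23 ± 1.26, adjusted p = 0.0543). All 20 ribosomal protein genes had a negative sign, and RPS2, which has processed pseudogenes, was at 5723 CPM in FEZ1-null day 10 replicate 1 and 3386 CPM in replicate 2, against 3088 and 3108 CPM in wildtype organoids of day 10 (-0.72 ± 0.32, adjusted p = 0.274).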

How the data were processed

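The authors deposited raw counts for 28207 gene symbols. The submitters' processing notes name STAR, HTSeq and DESeq2 with the build hg19, without versions or the strand setting of counting. Library preparation by a company from TRIzol-extracted total RNA is given in the labels' protocols. The authors' normalized table and their table of tests were not used here. Coordinates from hg19 are not printed, and promoters carry their own build.

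The 8 B16 libraries entered 1 edgeR 4.0.16 quasi-likelihood fit (R 4.3.3) with 4 group means, TMM factors, robust estimation and filterByExpr, which kept 17625 genes. Contrasts were two-sided and Benjamini-Hochberg adjusted over all genes tested, and an adjusted p below 0.05 is called. The standard error is the size of the log2 fold change divided by the square root of F. The code difference at day 10 used all 12 libraries in 6 groups (17757 genes). Levels are CPM on the TMM scale, and log2 CPM uses a prior count of 2. The scales of the 8-library and 12-library sets differ by at most 0.26%. The fit was tested on simulated data. Alternatives used limma 3.58.1 (voom), DESeq2 1.42.0, other size factors, no filter, a replicate block, other day 10 libraries and each library left out.

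Named genes are FEZ1, FEZ2, up to 10 and 10 called genes with the largest interaction, up to 5 and 5 more with a larger day 60 part, up to 4 and 4 with opposite signs at the days, and from each of 36 lists up to 3 called members or, with none called, up to 2 with the smallest p. They needed a mean of 5 CPM in a group and a symbol that is no LOC or LINC number, clone name or antisense name, except in lists. Some genes that the rule takes are not reported here, and genes given as the few left by a count (such as P2RX3) were chosen after their values were seen. The comparison, the members and the lists were chosen with earlier results of these data known.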

Additional observations from a re-analysis of the deposited data

Results flagged for a closer look

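The knockout effect differed between day 60 and day 10 for 908 genes by the test of the difference itself, and among the genes named for it 53 differed in the positive and 20 in the negative direction. FEZ1 was 1 of these, with a day 60 minus day 10 difference of its effect of -1.22 on the log2 scale.

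At day 10 the knockout effect differed between the code B16 and the codes B27 and B29 for 1057 genes by the test of that difference. The wildtype day 10 libraries of B16 moved with this result, at 67.1 and 79.9 on the component that set them apart, and the other 6 day 10 libraries lay at or below -12.6. What the codes stand for was not tested, and with 1 library per genotype in each of B27 and B29 those codes cannot be told apart from their libraries.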

How the results depend on the processing

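For the interaction, DESeq2 called 1368 genes (921 positive and 447 negative), and the fit of 12 libraries in 6 groups called 1363. limma-voom gave 864, DESeq2's size factors 875 and no filter 1174. All 4 day 10 libraries per genotype gave 0 calls, the B27 and B29 libraries 50, and, chosen after seeing the data, the exchange of the wildtype day 10 libraries 0 and that of the FEZ1-null ones 2982. Leaving out 1 library gave 430 to 6461 calls. For the day 10 effect the same 5 fits gave 3369, 22, 29, 46 and 5865 calls, and leaving out 1 library 681 to 8026. For the day 60 effect DESeq2 gave 255, limma-voom 35, no filter 90 and the 12-library fit 48, and leaving out 1 library 0 to 622. For the code difference DESeq2 gave 1728, and leaving out 1 library 330 to 7026. The cause of these shifts was not tested. A fit that leaves 1 library in a group assumes that it varies like the other groups.

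The labels state no pairing by replicate number. The correlations of same-numbered deviations between groups were -0.124 to 0.128, which does not show whether the libraries were paired. With replicate number as a block 765 interactions were called, 1611 effects at day 10 and 6 at day 60, and 9 of the 73 named calls were lost.

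With the B27 and B29 day 10 libraries, 21 of the 70 named calls with a value turned sign and 2 held (TLX3, KLHL40 and DRGX had none). The values were -0.61 for ITGA8, -0.23 for B3GALT2, 2.54 for FGF19, -0.95 for STMN2, -0.25 for NEUROD1, -1.16 for NEUROD4, -1.12 for RELN and -0.44 for POU3F3. They were -1.12 for SST, -1.58 for GRIA2, -0.071 for SLC17A6, -1.59 for SYT4, -0.60 for NR2F1, 1.94 for SIX6, -0.58 for SOX10, -0.022 for KIF5A, -0.13 for CXCR4, -0.37 for GDF7, -0.021 for EGR1, -0.58 for SEMA3C and -0.72 for NRP2. With only the wildtype ones exchanged, 8 of 70 turned sign, at -0.31 for ISL1, 2.05 for FGF19, -0.83 for TNC, -0.81 for NR2F1, 1.39 for SIX6, -0.65 for SOX10, -0.22 for EGR1 and -0.28 for NRP2. With all 4 day 10 libraries per genotype, FGF19 was at 1.28 and SIX6 at 0.68. None of these reversed values passed the test. The other tools kept the direction of all 73, and 63 to 73 of the calls. Counts of 0 to 3 in a group limit the fold change of a gene, and 2 libraries a group limit every test.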
